A study of Mus musculus with 6 samples.

Results

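The genes described here build the hyaluronan-based matrix of the central nervous system and its condensed form, the perineuronal net. They are the lecticans Acan, Bcan, Ncan and Vcan, the link proteins Hapln1, Hapln2 and Hapln4, the tenascins Tnr and Tnc, and the hyaluronan synthase Has2. All probe sets were taken for which the platform annotation names exactly 1 gene and that gene is among these 10. This gave 26 probe sets of 45030 tested, and all 10 genes of the 18191 measured genes had at least 1. Lumbar dorsal root ganglia (DRG), where sensory neurons have their cell bodies outside the central nervous system, were compared with lumbar spinal cord (SC). Both groups came from male C57BL/6J mice aged 3 months, and the labels name no treatment and no altered allele. There were 3 arrays per tissue, each with RNA from a separate pool of 4 mice, left and right sides combined. The labels do not say whether the ganglia and the cords came from the same mice, and a pool hides the spread between single animals.

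As background, lecticans are chondroitin sulfate proteoglycans whose head end binds hyaluronan and whose tail end binds tenascins. Link proteins clamp the lectican head onto the hyaluronan chain, and the chain itself is spun out at the cell surface by hyaluronan synthases. In the spinal cord, this matrix forms nets around motor neurons and some interneurons, a looser matrix between cells, and a coat at nodes of Ranvier. Peripheral ganglia hold a matrix richer in collagens and laminins. Several of these genes, Acan, Vcan and Hapln1 among them, are also known from cartilage and other connective tissue.

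Values are MAS5 signals recovered from the deposited ratios, in arbitrary units and on the deposited array scaling. Differences are DRG minus SC on the scale log2(signal + 16), so a negative value means more in SC. A call is a limma adjusted p under 0.05, with Benjamini-Hochberg adjustment over the 45030 probe sets. As a floor, the 95th percentile was taken over 66 probe sets of genes that neither tissue should express, and this floor lay between 111 and 164 on the 6 arrays. Where no array of a tissue exceeded it, the fold is written as at least the value shown. Probes differ in how brightly they report. The floor, the choice of the brightest probe set of a gene and the summed signals below all set different probe sets against each other. A signal above or under the floor is therefore only a rough guide to expression.

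Most members gave more signal in spinal cord. Hapln2 had the largest difference, at least 7.80-fold, and Hapln4, Acan, Ncan, Vcan and Tnr were called too, Tnr with all 6 arrays under the floor described above. Bcan was higher in SC on 1 of its 2 probe sets. Hapln1, Tnc and Has2 were not called on any probe set. With each gene represented by its brightest probe set, 6 of 10 members were called higher in SC, where 9.70% of all genes were, and 0 of 10 were called higher in DRG, where 31.8% of all genes were. Over probe sets, 10 of 26 were called higher in SC, against 9.79% of all probe sets, and 0 higher in DRG, against 22.7%. At an unadjusted p under 0.05, limma gave 0 member probe sets higher in DRG, and without the intensity trend 0 member genes were called higher there. The brightest Hapln1 probe set came close, at an unadjusted limma p of 0.0515, and was called higher in DRG when SC replicate 1 was left out. The median difference over the 10 genes was −0.88, beside 0.18 over all genes.

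**Figure D1:**
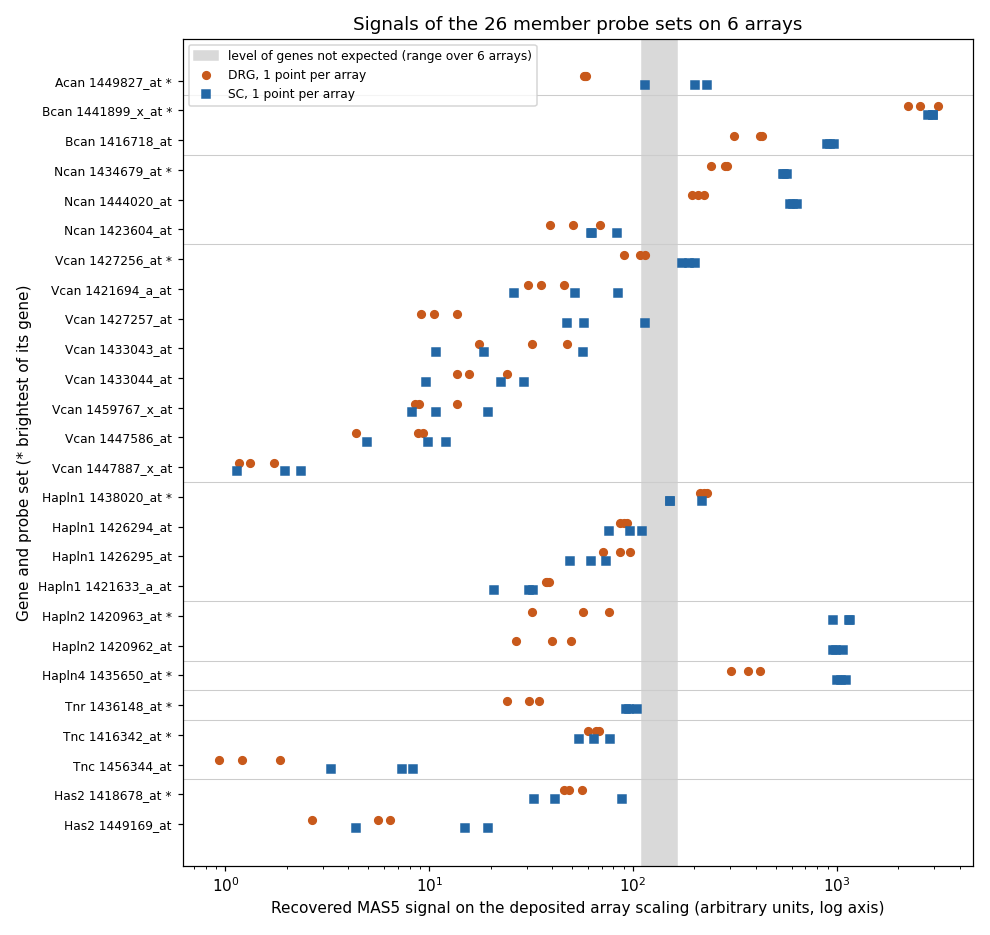
Recovered signal (horizontal log axis, arbitrary units) of each of the 26 probe sets (rows, * for the brightest of its gene), with 1 circle per DRG array and 1 square per SC array, and the range of the floor, the level of genes not expected, in grey. On both Hapln2 probe sets the SC squares lie between 953 and 1162 and the DRG circles at 75.8 or less, while 15 of the 26 probe sets stay at or under the floor on all 6 arrays.

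The 3 arrays of SC all lay above the 3 of DRG for 11 of the 26 probe sets, against 15.1% of all probe sets. The reverse held for 1 of 26, against 28.4%, and 14 overlapped. On 15 of 26 no array exceeded the floor, so for these the signal cannot be told from that of a gene that is not expressed. They include all probe sets of Tnr, Tnc and Has2.

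Markers of the labelled tissues were present. All 10 sensory neuron genes were called higher in DRG. Of 7 spinal neuron genes 6 were called higher in SC, and the glutamate transporter gene Slc17a6 was higher in DRG at 0.92. Motor neuron genes split, with 4 of 7 called higher in SC and 2, Isl1 and Prph, higher in DRG. Both are also on the sensory neuron list. Schwann and satellite glia genes split as well, with 6 of 8 called higher in DRG and 2, Mal and Kcnj10, higher in SC. Central glial genes moved in the same direction as the members. All 10 astrocyte genes were called higher in SC, with summed signals of 29945 to 33544 on the SC arrays and 3764 to 3803 on the DRG arrays. All 8 oligodendrocyte genes were too, with sums of 25441 to 29797 against 11175 to 11782. Among 8 markers of oligodendrocyte precursors, SC had 4 of the calls and DRG had 1. Of the astrocyte genes, Gfap, Slc1a2, Gjb6, Fgfr3 and Slc7a10 were not above the floor on any DRG array. Fewer cells of a type and less RNA per cell cannot be told apart in whole tissue, and the part of these cell types in the members' differences was not tested.

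The scaling of the arrays sets the zero of every difference. The median gene differed by 0.18 on the deposited scaling, by 0.04 after quantile normalization and by −0.10 with the signals before the authors' array factors. Before these factors the arrays were already alike in their trimmed means (without the highest and lowest signals), at 247.2 to 247.4. All 6 called members kept call and direction on these 3 scalings, and with Bcan 7 of 10 were called higher in SC and 0 in DRG on both others. Over all probe sets the calls toward DRG and SC were 10204 and 4408 on the deposited scaling, 6722 and 6467 after quantile normalization and 6009 and 8969 before the array scaling. Arrays of one tissue correlated at 0.966 to 0.970 over all probe sets and arrays of different tissues at 0.891 to 0.898.

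Among the lecticans, neurocan and brevican are the forms made mainly in the nervous system, aggrecan is the one that marks perineuronal nets most strongly, and versican is the most widespread. Ncan was measured on 3 probe sets. On the brightest, the DRG arrays read 288, 284 and 242 and the SC arrays 544, 569 and 552. On the next, the DRG arrays read 208, 195 and 222 and the SC arrays 636, 609 and 587. On both, the highest DRG array stayed well below the lowest SC array, and all 6 arrays were above the floor. The differences were −0.99 ± 0.10 (SE, n = 3 per tissue, limma adjusted p = 3.44e-05) and −1.48 ± 0.09 (limma adjusted p = 2.08e-06), or 2.05-fold and 2.94-fold more signal in SC. The dimmest Ncan probe set never rose above that level, its arrays overlapped, and its difference was −0.33 (95% interval −0.91 to 0.25).

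Bcan gave probe sets that disagreed. On 1416718_at the DRG arrays read 430, 313 and 420, and the SC arrays 972, 928 and 892. The tissues did not overlap there, and the difference was −1.24 ± 0.12 (SE, n = 3 per tissue, limma adjusted p = 3.46e-05), or 2.43-fold. On 1441899_x_at, the brighter, DRG gave 2545, 2223 and 3117, and SC gave 2958, 2812 and 2948. The DRG arrays there ran from below to above all SC arrays, and the difference was −0.16 (95% interval −0.41 to 0.10, limma adjusted p = 0.356). The suffix _x_at marks probes that can also match other transcripts, and the annotation gives this probe set no accession. Its call depended on the setting. It was called higher in SC after quantile normalization at −0.75 (limma adjusted p = 0.000285), before the array scaling at −0.53 (0.00280) and without DRG replicate 3 at −0.29 (0.0442), with limma adjusted p between 0.000285 and 0.793 over the settings tried. The mean of both probe sets differed by −0.70 (limma adjusted p = 0.000833).

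Acan was measured on 1 probe set. The DRG arrays read 58.8, 57.5 and 58.2, and the SC arrays 115, 201 and 230. The DRG arrays were nearly alike and under the floor, while 2 of 3 SC arrays were above it and SC replicate 1 was not. Skeletal muscle genes were uneven over the arrays as well, with summed signals of 540 to 2079 in DRG and 564 to 2615 in SC. The muscle actin gene Acta1 read 126, 192 and 558 in DRG but 163, 667 and 875 in SC, so its SC arrays stood in the same order as those of Acan, while DRG replicate 3, high in Acta1, was not high in Acan. Of 10 muscle genes, SC had 1 of the calls and DRG had 0, and their part in the Acan difference was not tested. The difference was −1.37 ± 0.25 (SE, n = 3 per tissue, limma adjusted p = 0.00211), and the fold at least 1.26. Leaving out any 1 array kept the call, with adjusted p from 0.000547 to 0.0144.

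Vcan had 8 probe sets, more than any other member, and 2 of them were called. On the brightest, 1427256_at, it had signals of 90.5, 114 and 108 in DRG and 174, 188 and 202 in SC. All DRG arrays were under the floor and all SC arrays above it, with a difference of −0.77 ± 0.16 (SE, n = 3 per tissue, limma adjusted p = 0.00390) and a fold of at least 1.35. On 1427257_at it had 9.13, 13.7 and 10.5 in DRG and 57.6, 115 and 47.4 in SC, a difference of −1.65 ± 0.31 (limma adjusted p = 0.00264), although only 1 SC array exceeded that level. The other 6 probe sets stayed under it on all arrays, their tissues overlapped, and their differences ran from −0.32 to 0.20. As the mean of all 8, Vcan differed by −0.36 and was not called (limma adjusted p = 0.191). Versican is made in several splice forms, and the annotation does not say which of them a probe set reports.

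**Figure D2:**
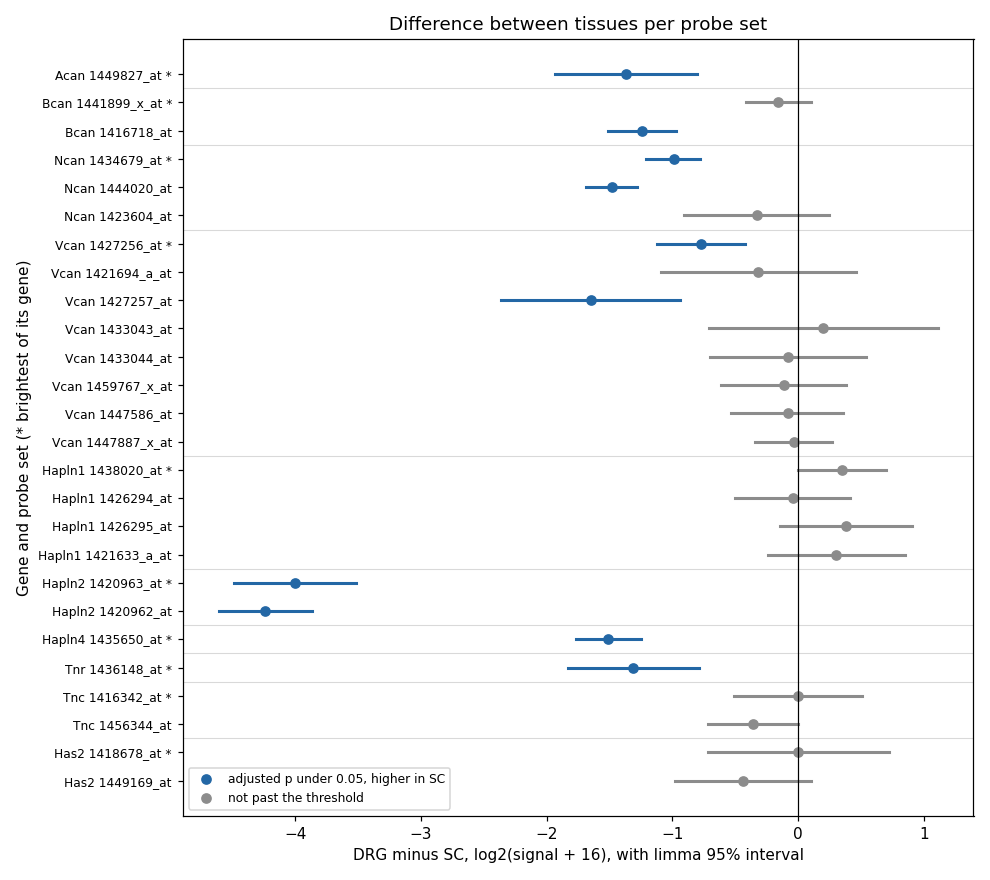
Difference DRG minus SC on the log2(signal + 16) scale (horizontal axis) with its limma 95% interval for each of the 26 probe sets (rows), blue where called higher in SC and grey where not past the threshold. The Hapln2 intervals, from −4.61 to −3.52 over both probe sets, lie apart from those of the other members, and no interval of a called probe set reaches 0.

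The link proteins split. Hapln2, also known as Bral1, is made by oligodendrocytes and sits at central nodes of Ranvier. On its brighter probe set it had signals of 56.9, 75.8 and 31.9 in DRG and 1140, 1162 and 953 in SC. On the other it had 49.5, 39.9 and 26.7 in DRG and 1074, 956 and 985 in SC. Every DRG array was under the floor and every SC array far above it. The differences were −4.00 ± 0.22 (SE, n = 3 per tissue, limma adjusted p = 8.64e-07) and −4.24 ± 0.16 (limma adjusted p = 1.17e-07), at least 7.80-fold and 7.24-fold.

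Hapln4, or Bral2, pairs with brevican in nets of the hindbrain and spinal cord. Its 1 probe set had signals of 366, 421 and 302 in DRG and 1113, 1048 and 1001 in SC. It was above the floor on all 6 arrays, those of the ganglion included. The difference was −1.51 ± 0.12 (SE, n = 3 per tissue, limma adjusted p = 8.18e-06), or 2.93-fold.

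Hapln1, the link protein of cartilage that is also found in perineuronal nets, was not called in either direction on any of its 4 probe sets. The brightest had signals of 214, 223 and 230 in DRG and 217, 152 and 152 in SC. SC replicate 1 lay within the DRG arrays and the other SC arrays below them. The difference was 0.35, with a 95% interval of 0.00 to 0.70 (limma adjusted p = 0.128). Without SC replicate 1 it was called higher in DRG at 0.50 (limma adjusted p = 0.0271), and before the array scaling it was 0.00 (limma adjusted p = 0.992), the ends of the range over its alternatives. The other 3 probe sets never exceeded the floor and differed by −0.04 to 0.38. On 1 of them, 1421633_a_at, all DRG arrays lay above all SC arrays, at 38.5, 37.5 and 37.8 against 20.7, 32.4 and 30.9.

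Markers of cartilage, where Acan, Vcan and Hapln1 are also made, were mostly at the floor. Of 12 cartilage and bone genes, 2 were called higher in DRG and 1 in SC, and 8 were never above the floor. Their summed signals were 927 to 1269 on the DRG arrays and 690 to 802 on the SC arrays. The cartilage collagen gene Col2a1 was under the floor on all 6 arrays, at 4.51 to 79.3. Cnmd, which encodes chondromodulin, was under the floor on all SC arrays and at least 2.32-fold higher in DRG (limma adjusted p = 3.13e-05). Fibroblast and meningeal genes were called higher in DRG in 8 of 10 cases, and the part of either tissue in the members' values was not tested.

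Tenascins join lecticans into a network. Tnr, made by oligodendrocytes and some neurons, had signals of 30.8, 24.1 and 34.6 in DRG and 95.4, 104 and 92.1 in SC on its 1 probe set. The tissues were well apart, and the difference was −1.31 ± 0.23 (SE, n = 3 per tissue, limma adjusted p = 0.00167). Every array was under the floor, so no fold is given. Signals at or near the floor can pass the test in genes that neither tissue should express. Of 42 such genes, 5 were called higher in DRG (11.9%, against 31.8% of all genes) and 3 in SC (7.14%, against 9.70%). That neither tissue expresses these 42 genes was assumed and not tested. Among them, with all 6 arrays under the floor, Dmp1 differed by −1.97 and Ttpa by −2.04, both further toward SC than Tnr. Tnc, the tenascin of developing and injured tissue, had 65.5, 68.0 and 60.2 in DRG and 64.1, 54.3 and 77.0 in SC on its brighter probe set. The tissues overlapped, and the difference was 0.00 (95% interval −0.51 to 0.51, limma adjusted p = 0.997).

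The second Tnc probe set gave 0.925, 1.21 and 1.86 for DRG but 7.37, 8.33 and 3.31 for SC. The arrays did not overlap, yet all were far under the floor. Its difference of −0.36 was not called (limma adjusted p = 0.130). It was called higher in SC with a pseudocount of 1, at −1.60 (limma adjusted p = 0.0303), and with the logarithm of the deposited ratio, at −2.21 (0.0394), within a range of 0.0303 to 0.291 over its alternatives.

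Has2, which makes long hyaluronan chains, had signals of 46.0, 56.2 and 48.4 in DRG and 41.2, 32.7 and 87.9 in SC on its brighter probe set. SC replicate 3 was the highest and the other SC arrays the lowest. The difference was 0.00 (95% interval −0.72 to 0.72, limma adjusted p = 0.998). On the dimmer probe set it was −0.44 (95% interval −0.98 to 0.10, limma adjusted p = 0.211). Neither exceeded the floor on any array, so these intervals bound the difference between the signals and not that between transcript levels.

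**Figure D3:**
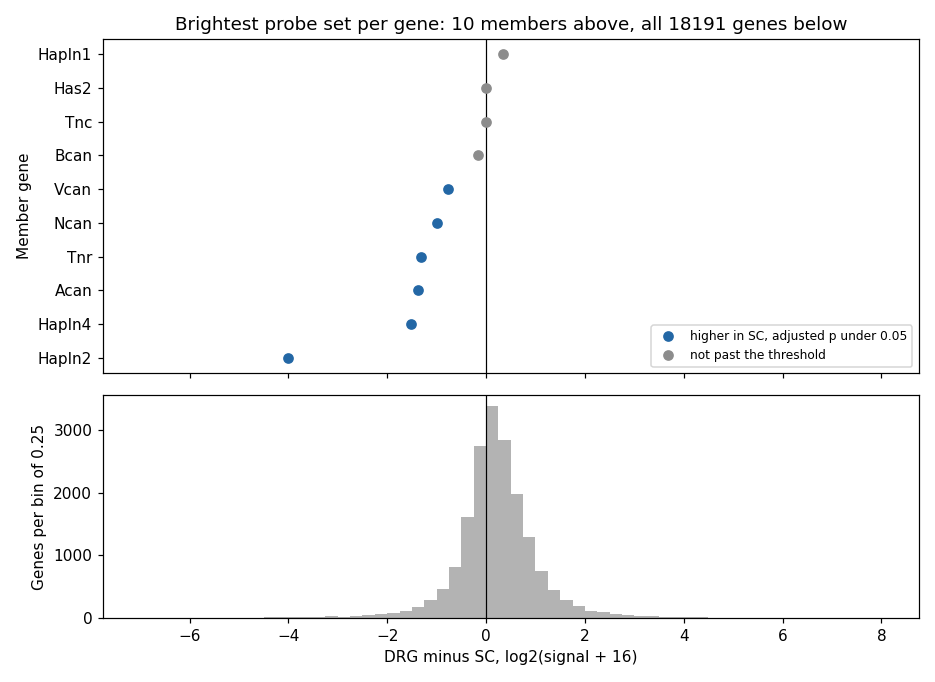
Difference DRG minus SC (horizontal axis, log2(signal + 16) scale) of the brightest probe set of each of the 10 members (upper panel, blue where called higher in SC) above a histogram of all 18191 genes in bins of 0.25 (lower panel). Most genes lie around the median of 0.18, the 6 called members lie at −0.77 and below, and Hapln2 lies at −4.00.

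Lecticans and link proteins are paired on the mouse chromosomes. In the RefSeq annotation of assembly GRCm38.p6, Bcan lies next to Hapln2 on chromosome 3, Ncan next to Hapln4 on chromosome 8, Vcan next to Hapln1 on chromosome 13 and Acan next to Hapln3 on chromosome 7. In each of these pairs, 0 protein-coding genes lie between the partners. Ncan and Hapln4 were both called higher in SC, at −0.99 and −1.51. In the Bcan and Hapln2 pair Hapln2 was called, and Bcan on 1 probe set. In the other pairs the lectican was called higher in SC and the link protein was not, with Vcan at −0.77 beside Hapln1 at 0.35, and Acan at −1.37 beside Hapln3 at 0.29 (95% interval −0.19 to 0.78, limma adjusted p = 0.366). Hapln3 never exceeded the floor.

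The nearest measured coding genes outside the pairs were not called higher in SC, where 9.70% of all genes were, and 31.8% were called higher in DRG. With so few neighbours, these calls do not set the members apart from them. Nes and Gpatch4 beside Bcan and Hapln2 differed by 0.00 and −0.12, and Tm6sf2 and Rfxank beside Ncan and Hapln4 by −0.73 and −0.20, none of them called. Edil3 beside Hapln1 was higher in DRG at 0.69 (limma adjusted p = 6.60e-05) and Isg20 beside Acan at 1.53 (0.00418). Xrcc4 beside Vcan differed by 0.19 and Mfge8 beside Hapln3 by −0.51, not called.

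The 250 bases before the start are shown for the Bcan and Hapln2 pair, which held the largest difference, and for the Vcan and Hapln1 pair, where only the lectican was called, with each CG dinucleotide in capitals. The sequences are from RefSeq, build GRCm38.p6, 5′ to 3′ on the strand of the gene. The windows are chr3:88000357-88000606 on the minus strand for Bcan, chr3:88027512-88027761 on the minus strand for Hapln2, chr13:89742513-89742762 on the minus strand for Vcan and chr13:89540386-89540635 on the plus strand for Hapln1.
Bcan: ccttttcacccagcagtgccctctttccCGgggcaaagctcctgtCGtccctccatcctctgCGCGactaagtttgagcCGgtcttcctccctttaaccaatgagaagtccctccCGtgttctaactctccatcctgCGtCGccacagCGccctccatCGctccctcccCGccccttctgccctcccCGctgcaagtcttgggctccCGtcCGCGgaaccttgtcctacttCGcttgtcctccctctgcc
Hapln2: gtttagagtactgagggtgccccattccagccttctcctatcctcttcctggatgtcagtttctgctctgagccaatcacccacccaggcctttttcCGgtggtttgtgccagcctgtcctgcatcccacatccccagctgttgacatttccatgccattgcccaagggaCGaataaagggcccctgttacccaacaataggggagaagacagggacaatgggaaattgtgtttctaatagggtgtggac
Vcan: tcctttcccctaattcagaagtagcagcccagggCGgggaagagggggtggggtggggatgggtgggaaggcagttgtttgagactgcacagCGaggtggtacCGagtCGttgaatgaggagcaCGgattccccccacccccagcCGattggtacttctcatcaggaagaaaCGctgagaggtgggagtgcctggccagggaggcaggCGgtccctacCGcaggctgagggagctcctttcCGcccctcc
Hapln1: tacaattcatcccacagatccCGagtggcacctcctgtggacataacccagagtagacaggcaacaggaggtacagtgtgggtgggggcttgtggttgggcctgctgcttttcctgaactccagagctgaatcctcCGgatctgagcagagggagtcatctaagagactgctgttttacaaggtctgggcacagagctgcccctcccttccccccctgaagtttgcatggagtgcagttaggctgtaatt
Bcan has 16 CG dinucleotides and Vcan 10, while both link proteins have 2. A window was found for 8 of the 10 members, 9 windows in all since Tnc has 2 that overlap.

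Scaled to base composition, the ratio of observed to expected CG was 0.81 for Acan and Bcan, 0.42 for Vcan and 0.33 for Ncan. It was 0.11 for Hapln1, 0.12 for Hapln2 and 0.15 for Tnr, and 0.62 and 0.64 for the Tnc windows, beside a median of 0.37 over all 32851 windows. Members called higher in SC thus stood at both ends, with Acan above 81.8% of all windows and Hapln2 above 17.4%. Short motifs were searched on both strands of the same windows. The SOX core ACAAAG or ACAATG was found in 2 of 9 member windows, those of Hapln2 and Tnr, and in 25.2% of all windows. The box TATAAA was found in 3 of 9, those of Ncan and Tnc, against 12.4%, CCAAT in 4 of 9 against 33.8%, and the GC box GGGCGG in 6 of 9 against 32.7%. A match is a description of the letters.

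**Figure D4:**
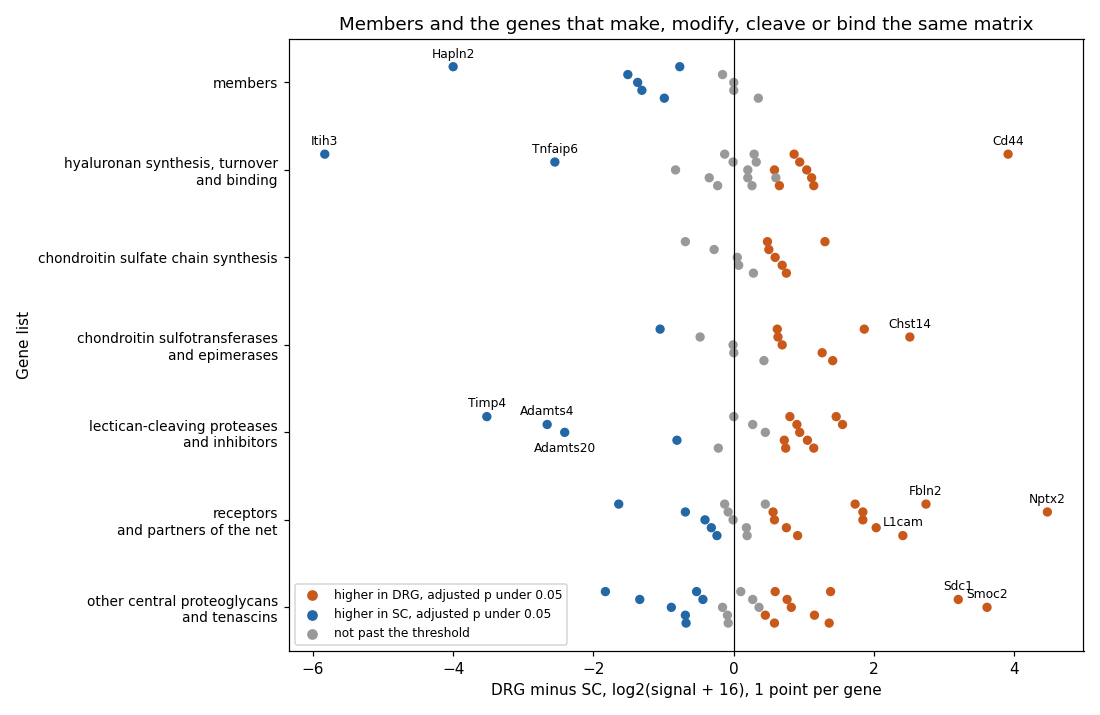
Difference DRG minus SC (horizontal axis, log2(signal + 16) scale) of the brightest probe set of each measured gene in the members and 6 lists of related matrix genes (rows), orange where called higher in DRG, blue where called higher in SC and grey otherwise. The members hold 6 blue points and 0 orange, while in the list of chondroitin chain synthesis 6 are orange and 0 blue, and names mark differences beyond 2.3 in size.

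The enzymes that build and modify chondroitin sulfate chains held more calls toward DRG than toward SC, as all genes did on the deposited scaling. Of 11 genes of chain synthesis, 6 were called higher in DRG (54.5%, against 31.8% of all genes) and 0 in SC (against 9.70%), and the median difference was 0.48. The split changed with the scaling: quantile normalization left 3 against 1, and the signals before the array scaling left 2 against 0. Chsy1, a chondroitin synthase, favoured DRG by at least 1.79-fold, Chpf2, its partner, differed by 0.69, and Xylt2, which starts the chain, differed by 0.75 with all 6 arrays under the floor and was not called before the array scaling. Sulfation and epimerization held 12 genes, of which DRG had 7 of the calls (58.3%) and SC had 1 (8.33%), or 7 against 2 and 5 against 2 on the other scalings. Toward DRG, Chst14, which sulfates dermatan chains, differed by at least 1.50-fold, Chst15 by 3.87-fold and Chst12 by 2.78-fold. Toward SC, Papss2, which supplies the sulfate donor, differed by at least 1.40-fold.

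Genes that make, turn over or bind hyaluronan were called about as often as genes in general. DRG had 8 of the calls (38.1%, against 31.8% of all genes) and SC had 2 (9.52%, against 9.70%) among these 21 genes, and their median difference was 0.29 beside 0.18 over all genes. Before the array scaling the split was 3 against 3 and the median −0.02. Cd44, the main cell surface receptor of hyaluronan, read 2872, 2861 and 2774 in DRG but 194, 179 and 149 in SC, 16.4-fold more in DRG (limma adjusted p = 1.11e-08). Cemip2, a hyaluronidase of the cell surface, differed by 1.14, and Itih2, under the floor on all SC arrays, was at least 1.01-fold higher in DRG but was not called before the array scaling. Itih3, a heavy chain that becomes bound to hyaluronan, read 21.3, 8.74 and 18.1 in DRG but 1832, 1775 and 1726 in SC, a rise of at least 12.8-fold toward SC (limma adjusted p = 1.87e-08). Tnfaip6, which transfers such heavy chains, favoured SC by at least 2.20-fold. The other synthases, Has1 and Has3, named as relatives of Has2 after their values were seen, differed by −0.13 and −0.83, neither called on the deposited scaling. Has3 was under the floor on every array. Before the array scaling it was called higher in SC, at −1.03 (limma adjusted p = 0.0246).

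Proteases that cut lecticans were divided by gene. Of 17 genes of these proteases, other degrading enzymes and protease inhibitors, 9 were called higher in DRG (52.9%, against 31.8% of all genes) and 4 in SC (23.5%, against 9.70%), or 8 against 5 and 7 against 6 on the other scalings. Adamts4, an aggrecanase that cuts brevican, read 81.6, 52.7 and 97.2 in DRG but 580, 599 and 507 in SC, a difference of at least 4.04-fold (limma adjusted p = 4.27e-06). Its close relative Adamts5 ran the other way, at 670, 566 and 620 in DRG and 201, 211 and 230 in SC, 2.88-fold (limma adjusted p = 3.96e-06). Adamts15 favoured DRG by at least 1.71-fold and Adamts20 favoured SC by at least 1.60-fold. Of the inhibitors, Timp4 favoured SC by at least 4.44-fold and Timp2 favoured DRG by 2.21-fold.

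Among 22 receptors and binding partners of the net, DRG had 11 of the calls (50.0%, against 31.8% of all genes) and SC had 5 (22.7%, against 9.70%), or 9 against 7 and 9 against 6 on the other scalings. Nptx2, a pentraxin that gathers glutamate receptors, favoured DRG by at least 9.46-fold, Fbln2, which binds lecticans, by at least 5.36-fold and the adhesion molecule L1cam by 5.39-fold. Toward SC, Sema3a, a guidance protein held in nets, differed by at least 1.66-fold, and Crtac1 and Egfr differed by −0.69 and −0.41. Among 23 other proteoglycans and tenascins, 10 were called toward DRG (43.5%, against 31.8% of all genes) and 7 toward SC (30.4%, against 9.70%). On both other scalings the split was 7 against 9. Cspg5, or neuroglycan C, a proteoglycan of the nervous system, was 3.70-fold higher in SC, Gpc5 2.72-fold, and Gpc2 differed by −0.89 under the floor. Toward DRG, Smoc2 differed by at least 10.8-fold, Sdc1 by at least 3.78-fold and Gpc3 by 2.81-fold.

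**Figure D5:**
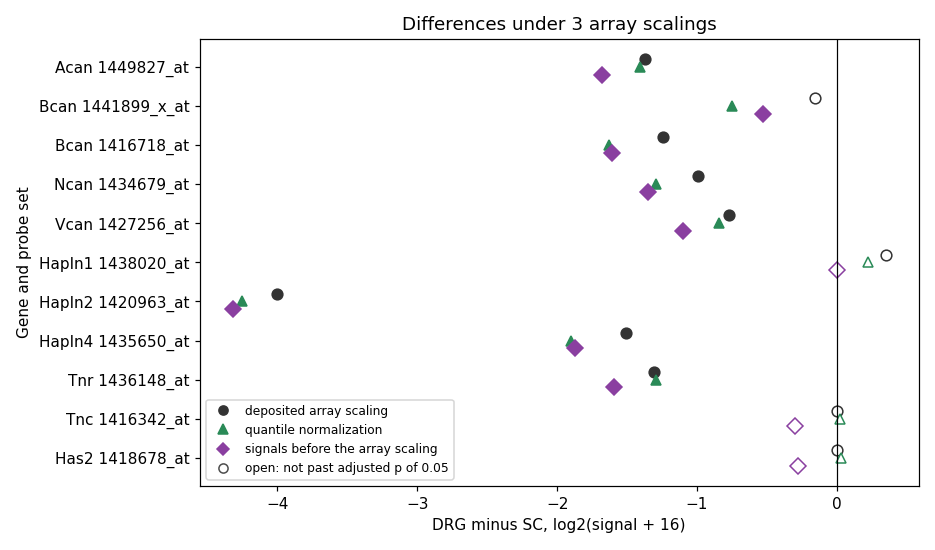
Difference DRG minus SC (horizontal axis, log2(signal + 16) scale) of the brightest probe set of each member and of the second Bcan probe set (rows) under the deposited array scaling (circles), quantile normalization (triangles) and the signals before the array scaling (diamonds), open where not past an adjusted p of 0.05. The 6 called members are filled on all 3, Bcan 1441899_x_at moves from −0.16 to −0.75 and −0.53 and becomes called, and Hapln1 moves from 0.35 to 0.22 and 0.00.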

How the data were processed

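RNA of 6 samples was hybridised to arrays of 45101 probe sets, including 64 controls. The submitters' processing notes name MAS5 without a version. The authors deposited linear ratios, and how they were formed is not given in the sources used here. For 91.8% of probe sets the median ratio over the arrays was 1 (within 1e-05). For 8.21% it was under 1, and their values lay on whole steps. Each ratio was therefore read as a signal divided by an array factor and by the probe set's median. Where the median ratio was under 1, a fixed divisor was assumed in place of the median. Signals were recovered as the smallest whole multiples of 0.1 that fit all 6 ratios, for 45092 probe sets. In simulation 98.3% were exact, 1.67% off by a factor common to all arrays and 0.0167% wrong. Such a common factor alters a level and can move it across the floor. It keeps the ratio between arrays, but a constant is added to the signal before the logarithm. The difference of a bright probe set therefore hardly changes, while that of a dim one can. The deposited array scaling was kept.

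Differences were tested with limma 3.58.1 (R 4.3.3, lmFit and eBayes with trend, two-sided) on log2(signal + 16) over 45030 non-control probe sets, with the method tested on simulated data. A single gene is named for 34945 probe sets, several for 932 and none for 9160. A gene is represented by its brightest probe set. The floor, or level of genes not expected, came from 42 measured genes of a list of 45. A lower bound of a fold sets the brighter tissue's mean log2 signal against the higher of this level and the dimmer signal. Of each related list, up to 3 called genes per direction with the largest difference and no overlap between tissues are named. The members, lists and tests were chosen with earlier results of these data known. Precision is limited by there being 3 arrays per tissue. Signals were recovered with numba 0.67.0 and numpy 2.4.6 under Python 3.11.15, and figures were drawn with matplotlib 3.10.9.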

Additional observations from a re-analysis of the deposited data

How the results depend on the processing

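The calls of the members were recomputed under 17 other settings. Of 381 values of single probe sets, 375 stayed on the same side of the threshold with no called value changing sign, 6 gained a call, 0 lost one and 0 called values reversed. Members called higher in SC numbered 5 to 7, and those called higher in DRG 0, apart from leaving out 1 array, which gave 0 to 1. When probe sets were averaged per gene the number was 6 as well, but Vcan was not called and Bcan was. The median difference of the members was −1.22 before the array scaling, −1.06 after quantile normalization, −0.68 with a pseudocount of 64, −0.99 for the 7 members left by a filter on low signals and −1.12 without _s_at and _x_at probe sets. Among all probe sets, calls toward DRG and SC went from 10204 and 4408 to 6009 and 8969 before the array scaling, and to 6722 and 6467 after quantile normalization, so that the share toward DRG was 69.8%, 40.1% and 51.0%. Over genes they were 5955 and 1862 with 1 probe set per gene and 5022 and 2035 with the mean, where fewer features were tested. Deviations of DRG and SC arrays with equal replicate numbers correlated at −0.01, −0.02 and 0.00. These values show no shared deviation, but they cannot tell whether the ganglia and cords came from the same mice. With the replicate number as a block the members called higher in SC were 6, their median was −0.88, and no member's call changed. Signals near the floor limit what can be said of Tnr, Tnc, Has2 and most probe sets of Vcan and Hapln1.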
